A study of Mus musculus with 96 samples.

Results

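Livers of mice that lack Rbbp5 in hepatocytes (LKO) were compared with livers of their floxed littermates (Flox) in the late subjective night and at its end, at circadian time (CT) 18, 20 and 22 of the first sampled day. The comparison was defined by genotype and labelled time alone and held 12 of the 96 liver RNA libraries of the series, 6 from LKO and 6 from Flox, with 2 per genotype at each of the 3 time points. LKO mice carried 2 floxed Rbbp5 alleles and 1 Alb-Cre transgene, and Flox mice, called WT in the sample titles, carried the same floxed alleles with no Cre. All were male C57BL/6J littermates aged 3 to 4 months, fed ad libitum, entrained to 12 h of light and 12 h of darkness for 2 weeks and then kept in constant darkness for 24 h before sampling began. The albumin promoter drives Cre in hepatocytes, and whether all other liver cells kept their floxed alleles was not measured. The labels do not say which segment of Rbbp5 lies between the loxP sites.

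RBBP5 belongs to the shared core of the enzymes that methylate lysine 4 of histone H3. Together with WDR5, ASH2L and DPY30 it holds the SET1 and MLL methyltransferases in an active form, and the mark they place lies at active promoters and enhancers. The series asks what RBBP5 does for rhythms of about 12 h in the mouse liver, where unfolded protein response genes under XBP1 are among those known to peak at such intervals. Late night is the time when nocturnal mice end their main feeding bout and bile acid, lipid and glucose handling shift towards fasting. Whole liver tissue was measured, so fewer cells of a type and less RNA per cell cannot be told apart in any of the values below.

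Values are fragment densities scaled to transcript length and library size (FPKM), divided by 1 size factor per library and called scaled FPKM. The depth in reads is unknown. Deposited totals ran from 332132 to 460815 FPKM, and a relative depth read from the smallest values ran from 0.969 to 1.30 in LKO and from 0.754 to 1.14 in Flox. Its log2 difference of 0.305 had an exact permutation p of 0.0185 within time points (0.0555 adjusted over 3 such values, smallest possible p 0.00926, two-sided). The ribosomal RNA precursor Rn45s stood apart in LKO CT22B at 26280 scaled FPKM and in LKO CT22A at 5271, while the other 10 libraries lay between 1184 and 2211. Size factors ran from 0.809 in LKO CT22B to 1.17 in LKO CT20A. All 14 hepatocyte markers with an entry were detected in each library, with sums of 36100 to 42200 scaled FPKM (median 41700) in LKO and 37400 to 56400 (median 45700) in Flox. The 13 measured T, B and NK cell markers summed to 4.28 to 9.73 scaled FPKM in LKO and 3.58 to 13.7 in Flox. Among earlier time points, used below for comparison only, Rbbp5 went against the labels in some libraries of CT2 and CT4. There the libraries labelled LKO held 3.23, 4.20, 3.66 and 3.97 scaled FPKM of Rbbp5, and those labelled Flox 3.62, 2.05, 3.45 and 2.33.

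Rbbp5 (ENSMUSG00000026439.14, mm10 chromosome 1, 132477365 to 132505659, plus strand) was lower in LKO livers. LKO libraries held 1.67 scaled FPKM at the lowest, 2.20 at the median and 2.88 at the highest, against 3.17, 3.61 and 3.72 in Flox libraries. The genotypes did not overlap after scaling. As deposited, LKO CT20A reached 3.38 FPKM, inside the Flox range of 2.92 to 3.83. The log2 difference was -0.52 with a standard error (SE) of 0.10 (limma, adjusted p = 0.034), and it was -0.53, -0.53 and -0.51 at CT18, CT20 and CT22. Transcript of the gene remained in LKO liver. Whether it came from cells that kept the allele or from reads outside the floxed segment was not tested. The Rbbp5 call was lost in 15 of 26 other settings, with an adjusted p of up to 0.239 and a log2 difference between -0.69 and -0.45. Of the other 15 tested subunits of the methyltransferase complexes none passed the test. All 15 differences were below 0, where 5517 of 9426 tested genes were. They were small, up to -0.007, and the list's median with Rbbp5 was -0.12, against -0.04 over all tested genes. The scaffold Wdr5 averaged 6.31 ± 0.522 scaled FPKM in LKO and 6.76 ± 0.355 in Flox (SD, n = 6 each). The direct partners Ash2l and Dpy30 had log2 differences of -0.03 and -0.09.

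Few genes passed the test, and most of them were higher in LKO. Among 9426 genes with a mean of at least 1 FPKM, 60 were higher in LKO (0.637%) and 18 lower (0.191%), 78 in all (0.827%), at an adjusted p under 0.05 in limma with time point as a factor. The median log2 difference over all tested genes was -0.04, and 41.5% of them were above 0. Without adjustment, 622 genes were higher and 960 lower at p under 0.05. All 60 higher and all 18 lower genes kept their direction at each of the 3 time points. In 46 of the 60 every LKO library lay above every Flox library, and in 11 of the 18 every LKO library lay below, where 0.881% and 0.912% of all tested genes were separated in this way. The genes were called in these same libraries, so their shared direction and their separation follow in part from the selection and are no separate support. The levels were low: 44 of the 78 genes averaged under 5 scaled FPKM in both genotypes. The filter took the mean over both genotypes, so some genes passed it only through the genotype in which they were high. Among these were Ly6d, Phlda3 and Col1a1, at 0.561, 0.541 and 0.882 in Flox, and Rcan2 and Lect1, at 0.412 and 0.609 in LKO. Such genes enter the counts above and the list shares below. With no filter 165 genes were higher and 48 lower, and 77.5% of calls were higher, against 76.9% with it.

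**Figure D1:**
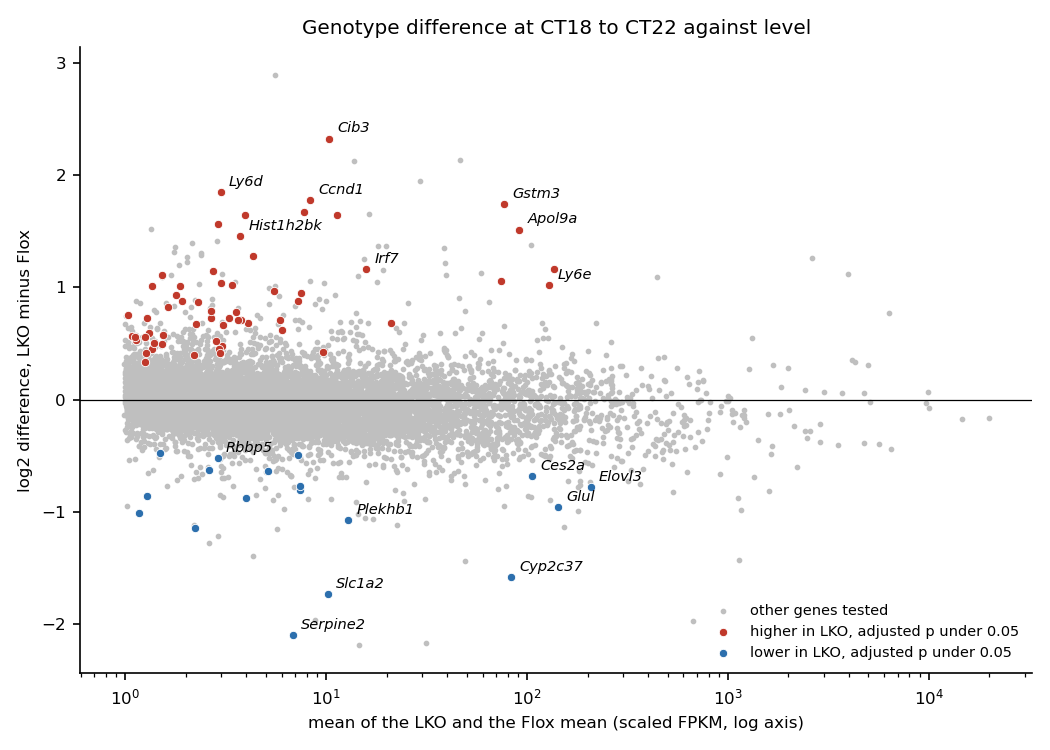
The log2 difference between LKO and Flox (vertical axis) is plotted against the mean level in scaled FPKM (log axis) for 9426 genes, each a point, with the 60 higher and 18 lower genes in colour. Higher genes are spread over the whole range of levels up to Apol9a, Apol9b and Ly6e, and Serpine2, Slc1a2 and Cyp2c37 lie lowest of the lower genes, at -2.10, -1.74 and -1.58.

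The size of the list rested on single libraries. Leaving out LKO CT18A gave 186 higher and 96 lower genes. Without LKO CT18B, LKO CT20B or LKO CT22A the counts were 29 and 14, 37 and 13, and 32 and 9. Without Flox CT18B, Flox CT20A, Flox CT22A or Flox CT22B they were 31 and 12, 25 and 10, 33 and 11, and 27 and 8. With log2 Rn45s as a covariate 29 genes were higher and 7 lower. Without the LKO libraries with the largest and the smallest size factor, CT20A and CT22B, 46 genes were higher and 17 lower. Ccnd1, Cdkn2c, Hist1h2bk and Slc1a2 passed in all 26 settings, and no gene of the 78 changed sign in any of them.

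Ccnd1, Cdkn2c, Mcm6 and Stmn1, genes with roles in cell division, rose in LKO livers. Ccnd1 (mm10 chromosome 7, 144929931 to 144939925, minus strand) encodes cyclin D1, which drives cells from G1 into S phase. Its LKO libraries held 10.1 scaled FPKM at the lowest, 14.2 at the median and 16.3 at the highest, against 1.89, 3.37 and 4.30 in Flox. Every LKO library lay above every Flox library by a wide margin, and the log2 difference was 1.78 (SE 0.16, limma adjusted p = 0.000228). Cdkn2c, which encodes the cyclin D kinase inhibitor p18INK4c, moved the same way at 6.49 ± 1.37 scaled FPKM in LKO and 2.12 ± 0.797 in Flox (log2 1.28, adjusted p = 0.000228). Mcm6, a subunit of the replicative helicase, averaged 1.79 in LKO and 0.842 in Flox (log2 0.59, adjusted p = 0.012). Stmn1, which destabilises microtubules, averaged 7.58 and 4.45 (log2 0.62, adjusted p = 0.039). Mcm6 and Stmn1 lost their calls in 6 and 15 of 26 other settings, and both did so with log2 Rn45s as a covariate. Cdkn2c and Stmn1 stood outside the cell cycle list, and Stmn1 was named after its values had been seen. Of the cell cycle list, 9 of 23 measured genes passed the filter on low values, Ccnd1 and Mcm6 were higher (22.2%, against 0.637% of all genes), none was lower, and the median log2 difference was 0.26 against -0.04 over all tested genes. The other 7 did not pass, among them Pcna at 12.8 scaled FPKM in LKO and 12.6 in Flox. Phlda3, a p53 target that restrains AKT, was the only 1 of 14 tested p53 targets to pass (2.17 ± 0.68 in LKO, 0.541 ± 0.0952 in Flox, log2 1.01, adjusted p = 0.0049). The p53 target Cdkn1a averaged 11.2 ± 4.51 in LKO and 12.7 ± 8.85 in Flox (adjusted p = 0.839).

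Histone transcripts moved in both directions. Hist1h2bk (mm10 chromosome 13, 22035870 to 22036345, plus strand) encodes an H2B histone. It ran from 4.96 to 6.97 scaled FPKM in LKO (median 5.80) and from 0.951 to 2.18 in Flox (median 1.55), with no overlap and a log2 difference of 1.46 (SE 0.12, adjusted p = 0.000228). Hist1h2bl averaged 4.75 in LKO and 2.503 in Flox (log2 0.71, adjusted p = 0.017), and Hist1h4k averaged 1.56 and 0.51 (log2 0.76, adjusted p = 0.017). Hist1h2bq was higher in both of its entries (log2 0.53 each). Hist1h2bf went the other way, at 2.52 ± 0.746 in LKO and 5.48 ± 1.27 in Flox (log2 -0.88, adjusted p = 0.018). These genes lie in 1 cluster on chromosome 13 and are near-identical in their coding parts, so how reads were shared among them is uncertain. Most replication-dependent histone mRNAs also lack the poly(A) tail on which an mRNA library kit of the kind used here selects. Of the 17 histone genes in the list only Hist1h2bk passed, and the median difference was 0.07.

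**Figure D2:**
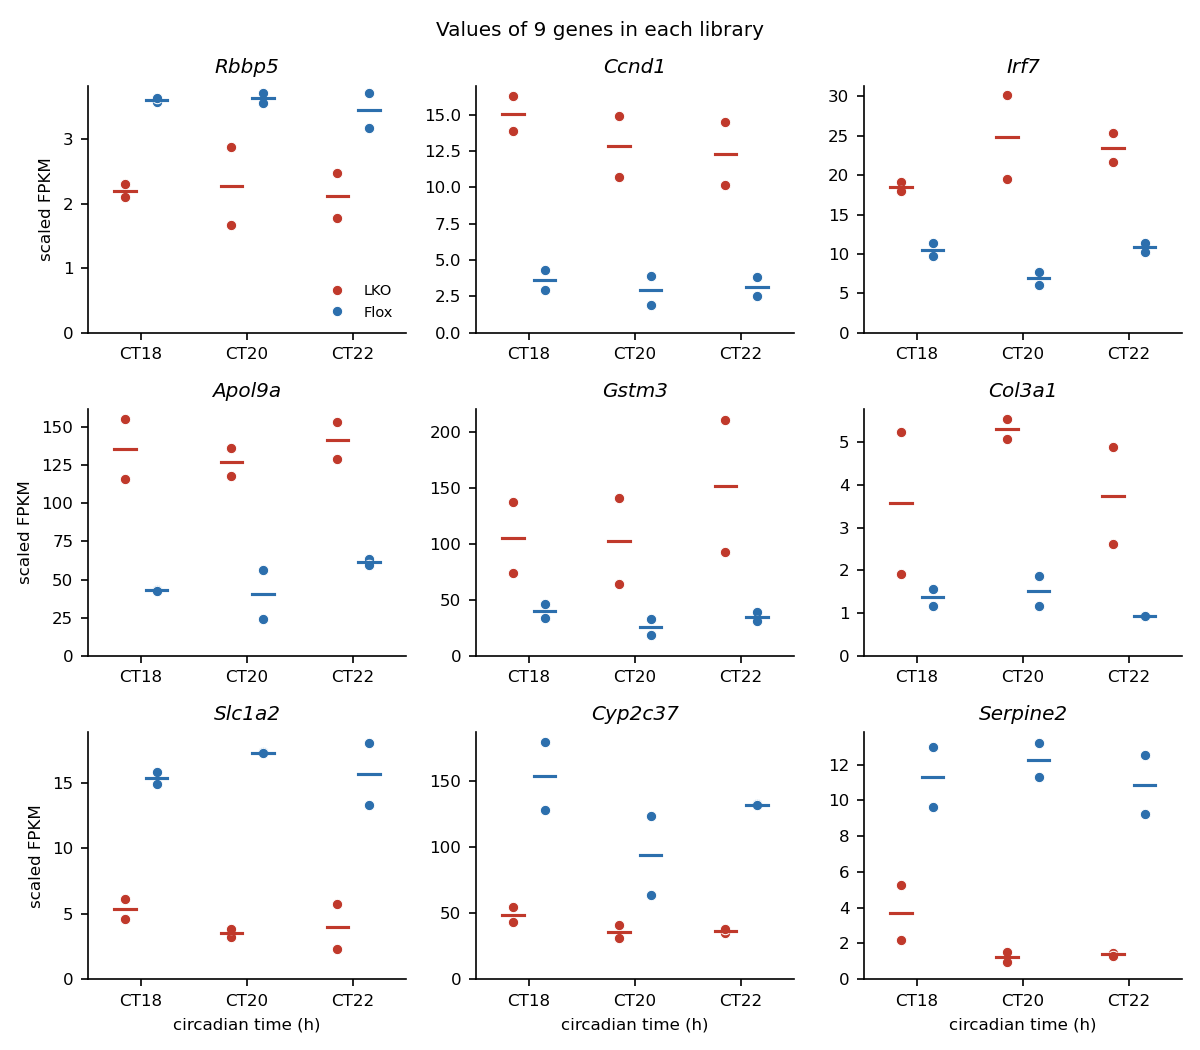
Scaled FPKM of 9 genes (vertical axes, from 0) at CT18, CT20 and CT22, with LKO libraries in red on the left and Flox libraries in blue on the right of each time point. Points are the 2 libraries and bars their mean, and in each of the 9 genes all 6 LKO libraries lie on 1 side of the 6 Flox libraries.

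Interferon-stimulated genes were higher in LKO livers. These genes answer to interferons, and interferon regulatory factors bind the interferon-stimulated response element in many of their promoters. Of 27 tested genes in the interferon list 5 were higher (18.5%, against 0.637% of all genes), none was lower, and the median log2 difference was 0.40. In 9 of the 27 all LKO libraries lay above all Flox libraries, against 0.881% of all tested genes. The list, like the others, was written with earlier results of these data known.

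Irf7 (mm10 chromosome 7, 141262706 to 141266481, minus strand) encodes the factor that amplifies type I interferon production. Its LKO libraries held 17.9 scaled FPKM at the lowest, 20.6 at the median and 30.1 at the highest, against 6.10, 9.99 and 11.4 in Flox. The groups did not overlap, and the log2 difference was 1.17 (SE 0.16, adjusted p = 0.0049). Usp18, which removes ISG15 from proteins and dampens interferon receptor signalling, averaged 2.87 in LKO and 0.877 in Flox (log2 1.01, adjusted p = 0.0043). Oas1a, a sensor of double-stranded RNA that activates RNase L, averaged 1.49 ± 0.165 and 0.682 ± 0.18 (log2 0.57, adjusted p = 0.0076). Ifi27l2a and Ifi27l2b, neighbouring genes of the ISG12 family, averaged 12.4 and 17.5 in LKO, against 3.06 and 5.20 in Flox (log2 1.67 and 1.64, adjusted p = 0.017 and 0.0039).

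Further genes known to answer to interferon passed outside the list and were named after their values had been seen. The cytoplasmic RNA sensors Ddx58 (RIG-I) and Dhx58 (LGP2) averaged 3.54 and 4.00 scaled FPKM in LKO, against 2.40 and 2.15 in Flox (log2 0.41 and 0.66). The related sensor Ifih1 (MDA5) averaged 3.10 ± 0.485 in LKO and 2.08 ± 0.578 in Flox and did not pass (adjusted p = 0.149). The pro-apoptotic factor Xaf1, the Golgi chaperone Rtp4, Samd9l, Trim34a and Mx2 had log2 differences of 0.73, 0.88, 0.87, 0.50 and 0.56. Mx2 belongs to a family of antiviral GTPases and is annotated as a polymorphic pseudogene in GENCODE M21. Mx2 and Trim34a lost their calls in 14 and 15 of 26 other settings, Ddx58 and Ly6a in 13 and 14, and Mx2, Xaf1, Rtp4, Samd9l, Trim34a, Ddx58 and Ly6a lost theirs with log2 Rn45s as a covariate. Ly6e and Ly6a, surface proteins of the Ly6 family, averaged 171 ± 24.6 and 10.2 ± 2.31 in LKO, against 85.8 ± 24.9 and 4.86 ± 1.39 in Flox (log2 1.02 and 0.95). Isg15, Ifit1 and Ifit3, standard reporters of an interferon response, had log2 differences of 0.93, 0.52 and 0.51 and missed the threshold (adjusted p = 0.055, 0.053 and 0.080). The interferon count was 0 of 27 without CT22, 3 without CT20 and 4 without CT18, with medians of 0.38, 0.38 and 0.47. It was 12 without LKO CT18A and between 4 and 6 without any other single library.

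Apol9a and Apol9b, apolipoprotein L genes induced by interferon, were higher in LKO as well and were also named after their values had been seen. Apol9a (mm10 chromosome 15, 77403789 to 77411135, minus strand) ran from 116 to 155 scaled FPKM in LKO (median 133) and from 24.2 to 63.3 in Flox (median 49.9). The log2 difference was 1.52 (SE 0.19, adjusted p = 0.0030) with no overlap. Apol9b averaged 188 ± 22.7 in LKO and 85.8 ± 22.8 in Flox (log2 1.16, adjusted p = 0.0052). Reads of this pair cannot be told apart with certainty, since the copies are close to identical, and their promoters share a run of 128 bases.

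The promoters of 7 higher genes held the core of the interferon-stimulated response element on either strand, which is a pair of GAAA repeats with 2 bases of any kind between them. The motif was chosen after the values had been seen. RefSeq promoters, 250 bases before to 50 after a start, were matched by symbol for 35 of 58 higher genes with a unique symbol. The 7 genes, 20% of the 35, were Apol9a, Apol9b, Cxcl14, D17H6S56E-5, Ddx58, Oas1a and Trim34a. Apol9a and Apol9b hold the same matches in their shared run of 128 bases, so 1 copied promoter counts as 2 of the 7. In Cxcl14 the match began 172 bases before the start. The motif stood in 1 of 13 matched lower genes (Glul), in 3.62% of 7206 tested genes with a promoter, in 3.99% of all 27025 genes in the table, and in 11 of 21 matched genes of the interferon list. The matched promoters of Irf7 and Xaf1 did not hold these letters in this window. The 4 windows shown here carry the match near the start, and each runs from 120 bases before to 30 after a RefSeq start with the matched letters in capitals.
Oas1a, GRCm38.p6 chr5:120907496-120907645, minus strand: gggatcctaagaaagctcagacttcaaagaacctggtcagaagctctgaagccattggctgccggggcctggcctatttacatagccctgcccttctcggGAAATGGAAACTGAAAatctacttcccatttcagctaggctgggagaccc
Apol9a, GRCm38.p6 chr15:77411051-77411200, minus strand: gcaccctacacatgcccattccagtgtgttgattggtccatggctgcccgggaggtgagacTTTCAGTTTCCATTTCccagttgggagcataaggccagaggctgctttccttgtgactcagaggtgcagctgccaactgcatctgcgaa
Ddx58, GRCm38.p6 chr4:40239796-40239945, minus strand: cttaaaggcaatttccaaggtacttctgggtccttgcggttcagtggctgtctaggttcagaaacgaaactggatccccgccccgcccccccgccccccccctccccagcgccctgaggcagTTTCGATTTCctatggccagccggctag
Trim34a, GRCm38.p6 chr7:104244337-104244486, plus strand: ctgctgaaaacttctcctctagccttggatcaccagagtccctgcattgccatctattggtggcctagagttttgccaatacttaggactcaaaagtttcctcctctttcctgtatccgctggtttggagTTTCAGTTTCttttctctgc
The nearest match began 14 bases before the start in Oas1a and 53 before it in Apol9a, where 2 matches overlap in each, and 2 and 10 bases after it in Ddx58 and Trim34a. Motifs of the other regulators were searched on both strands as well. The E-box CACGTG stood in 3 of the 35 higher and 1 of the 13 lower genes, 8.57% and 7.69%, against 12.3% of the tested genes. The ER stress element, CCAAT and CCACG with 9 bases of any kind between them, stood in none of them and in 0.208% of the tested genes. The D-box, TTAT or TTAC followed by GTAA, also stood in none, against 1.03% of the tested genes.

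Fibrillar collagen genes rose, at low levels. Col3a1, a fibrillar collagen, averaged 4.21 ± 1.54 scaled FPKM in LKO and 1.27 ± 0.375 in Flox, and the lowest LKO library (1.91) lay just above the highest Flox library (1.87). Its log2 difference was 1.15 (SE 0.19, adjusted p = 0.013). Col1a1 and Col1a2, the chains of type I collagen, averaged 2.71 and 2.81 in LKO, against 0.882 and 1.02 in Flox (log2 0.93 and 0.88), and the ranges of the genotypes overlapped. Of 16 tested extracellular matrix genes these 3 were higher (18.8%, against 0.637% of all genes) and none was lower, and the median was 0.38 against -0.04. Pcolce, which promotes procollagen cleavage, and the matrix protein genes Dpt and Fstl1 were higher outside the list (log2 0.68, 0.79 and 0.55). Hepatic stellate cells are the main collagen producers of the liver. All 15 of their markers had values above 0, with overlapping sums of 78.5 to 124 scaled FPKM in LKO (median 111) and 69.2 to 106 in Flox (median 87.4). Of 12 tested markers Pdgfrb, the PDGF receptor of these cells, passed (1.95 in LKO, 1.09 in Flox, log2 0.50, adjusted p = 0.014). Of the 12 differences 11 were above 0, against 41.5% over all tested genes, and the median was 0.28 against -0.04. Whether stellate cell number has a part in the collagen values was not tested. None of the 16 matrix genes passed without CT20, without CT22 or with log2 Rn45s as a covariate. The count was 8 without LKO CT18A, 1 without any of LKO CT18B, LKO CT20B, LKO CT22A, Flox CT18B, Flox CT20A, Flox CT20B, Flox CT22A and Flox CT22B, and 2 or 4 without any of the other 3 libraries.

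Of a list of genes of fetal liver and of stressed hepatocytes, Gstm3, Ly6d, Cd24a and Anxa5 were higher. Gstm3 (mm10 chromosome 3, 107963696 to 107969283, minus strand), a mu-class glutathione transferase, ran from 64.6 to 211 scaled FPKM in LKO (median 115) and from 18.6 to 46.3 in Flox (median 33.2). The log2 difference was 1.74 (SE 0.27, adjusted p = 0.012), and close relatives in the Gstm cluster make its read assignment uncertain. Ly6d, a surface protein of lymphoid and epithelial progenitors, averaged 5.40 ± 3.74 in LKO and 0.561 ± 0.144 in Flox (log2 1.85, adjusted p = 0.017). Its LKO libraries ran from 2.53 to 11.5, a spread far wider than that of Flox. Cd24a, a progenitor surface antigen, and Anxa5, a phospholipid-binding annexin, had log2 differences of 0.82 and 0.68 (adjusted p = 0.017 and 0.034). These were 4 of 15 tested genes in the list (26.7%, against 0.637% of all genes), and none was lower. All 15 differences were above 0, against 41.5% over all tested genes, and the median was 0.85 against -0.04. This list too was written with earlier results of these data known. S100a11 (log2 1.37, adjusted p = 0.059) and the imprinted noncoding RNA Meg3 (log2 1.40, adjusted p = 0.092) did not pass. None of the 15 passed without CT20 or without CT22, and 10 passed without LKO CT18A. The count was 2 without any of LKO CT18B, LKO CT20B, Flox CT18B, Flox CT20B and Flox CT22A, and 1 without Flox CT20A or Flox CT22B.

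Kupffer cell and monocyte markers did not pass the test. The 14 Kupffer markers, all above 0, summed to 202 to 257 scaled FPKM in LKO (median 227) and 131 to 230 in Flox (median 182). All 13 tested differences were above 0 with a median of 0.24, against 41.5% and -0.04 over all tested genes. The lysosomal protein Cd68 averaged 7.86 ± 1.81 in LKO and 4.32 ± 1.47 in Flox (adjusted p = 0.080). The 11 measured monocyte markers summed to 11.6 to 33.7 in LKO (median 23.1) and 9.25 to 18.4 in Flox (median 12.6). The 7 measured neutrophil markers summed to 2.01 to 27.3 in LKO (median 5.73) and 1.24 to 6.06 in Flox (median 4.62), with Elane, Retnlg and Ngp at 0 in some libraries. The part of such cells in the interferon and matrix values was not tested.

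The remaining higher genes belonged to no single list. Cib3, which encodes a calcium- and integrin-binding protein, had the largest log2 difference of the called genes, 2.33 (SE 0.39, adjusted p = 0.020). The log2 scale adds 1 to each value and understates changes of low genes, such as Ly6d at 5.40 in LKO and 0.561 in Flox. The LKO libraries held 6.83 scaled FPKM of Cib3 at the lowest, 16.9 at the median and 30.3 at the highest, against 0.775, 2.34 and 5.11 in Flox. The genotypes did not overlap, though the values spread over a wide range within each. The chemokine Cxcl14, the nicotinic receptor subunit Chrna4 and the noncoding RNA D17H6S56E-5 had log2 differences of 1.65, 1.56 and 1.11. The genotypes overlapped in Cxcl14 and Chrna4. Cxcl14 lost its call in 16 of 26 other settings, Chrna4 in 2 and D17H6S56E-5 in 3. The secreted glycoprotein Mfge8, which marks apoptotic cells for uptake, averaged 7.63 ± 1.45 in LKO and 3.35 ± 0.225 in Flox (log2 0.97, adjusted p = 0.0015). The nuclear noncoding RNA Neat1, the scaffold of paraspeckles, averaged 99.2 ± 26.7 in LKO and 49.5 ± 22.03 in Flox (log2 1.06, adjusted p = 0.042). It was the only 1 of 11 tested genes on a list of rRNA precursor and nuclear noncoding RNAs to pass, and it lost its call in 18 of 26 other settings. Rn45s itself had a log2 difference of 1.12 (adjusted p = 0.279).

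Among the 18 lower genes were several that mark hepatocytes around the central vein. Slc1a2 (mm10 chromosome 2, 102658659 to 102790784, plus strand) encodes the glutamate transporter GLT-1, which feeds glutamine synthesis in these cells. LKO libraries held 2.28 scaled FPKM at the lowest, 4.19 at the median and 6.16 at the highest, against 13.3, 16.6 and 18.1 in Flox. No LKO library came near the Flox range, and the log2 difference was -1.74 (SE 0.17, adjusted p = 0.000527). Glul (mm10 chromosome 1, 153899944 to 153909723, plus strand), which encodes glutamine synthetase, ran from 67.0 to 116 in LKO (median 106) and from 119 to 228.5 in Flox (median 202). The ranges nearly touched, and the log2 difference was -0.96 (SE 0.18, adjusted p = 0.026). Cyp2c37 (mm10 chromosome 19, 39992424 to 40012243, plus strand), a P450 that oxidises arachidonic acid, ran from 31.1 to 54.4 in LKO (median 39.4) and from 63.9 to 180 in Flox (median 130.0). The log2 difference was -1.58 (SE 0.17, adjusted p = 0.0012), and it belongs to a cluster of similar genes.

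Of 18 tested pericentral genes Slc1a2 and Glul were lower (11.1%, against 0.191% of all genes), none was higher, and the median log2 difference was -0.17. Cyp2e1, the ethanol-oxidising P450, averaged 1153 ± 231 scaled FPKM in LKO and 2050.0 ± 476 in Flox, with no overlap (log2 -0.82, adjusted p = 0.054). Ornithine aminotransferase, Oat, averaged 120 ± 32.8 in LKO and 239 ± 64.7 in Flox, again with no overlap (log2 -0.997, adjusted p = 0.055). The Wnt target Axin2 averaged 1.52 ± 0.757 in LKO and 0.999 ± 0.205 in Flox (adjusted p = 0.347), and the Wnt-dependent factor Tbx3 4.56 ± 2.74 and 5.64 ± 2.30 (adjusted p = 0.582). None of the 18 tested periportal genes passed, and their median was -0.17. Glul lost its call in 12 of 26 other settings, with an adjusted p of up to 0.242. The pericentral count was 1 without any of LKO CT18B, LKO CT22A, Flox CT18B, Flox CT18C, Flox CT20A, Flox CT22A and Flox CT22B, and 2 or 3 without any other single library.

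**Figure D3:**
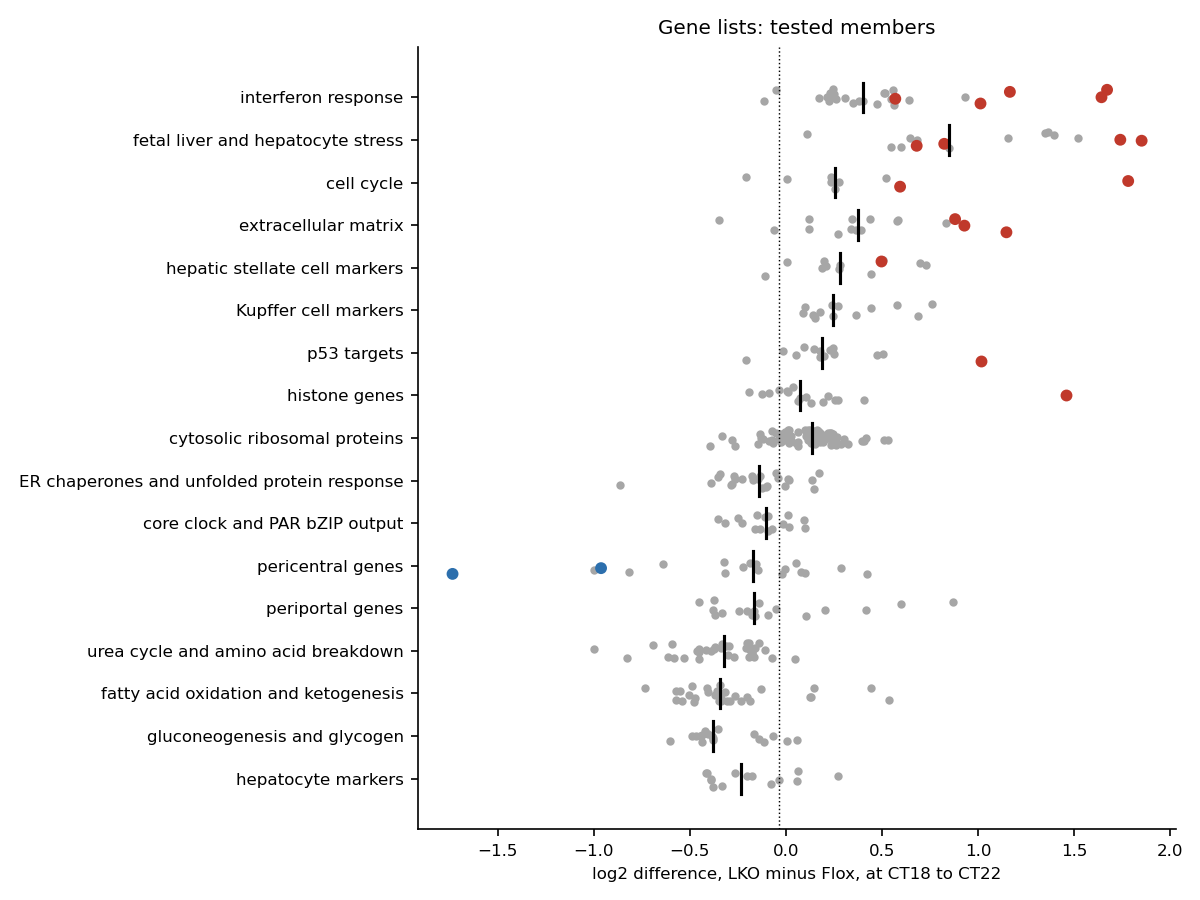
Log2 differences between LKO and Flox (horizontal axis) for the tested members of 17 gene lists, each point a gene, with genes past the threshold in red (higher) or blue (lower), black bars at each list's median and a dotted line at the median of all tested genes, -0.04. Interferon, fetal and matrix lists lie to the right with medians of 0.40, 0.85 and 0.38, while amino acid breakdown, fatty acid oxidation and gluconeogenesis lie to the left with no gene past the threshold.

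Serpine2 had the lowest log2 difference of the 18 lower genes. It encodes protease nexin-1, a secreted inhibitor of thrombin and urokinase (mm10 chromosome 1, 79794197 to 79861180, minus strand). LKO libraries held 0.972 scaled FPKM at the lowest, 1.504 at the median and 5.26 at the highest, against 9.21, 11.9 and 13.2 in Flox. LKO CT18A alone stood above 2.2 among the LKO libraries, and none reached the Flox range. The log2 difference was -2.10 (SE 0.21, adjusted p = 0.000527). Plekhb1, a membrane protein with a pleckstrin homology domain, averaged 7.87 ± 0.887 in LKO and 17.95 ± 3.61 in Flox (log2 -1.07, adjusted p = 0.0025). The carboxylesterase Ces2a averaged 81.0 ± 9.23 and 131 ± 14.6 (log2 -0.68, adjusted p = 0.018), and Elovl3, an elongase of very long fatty acids, 154 ± 66.2 and 260.5 ± 96.4 (log2 -0.78, adjusted p = 0.012). Elovl3 was high late in both genotypes, with 244 and 212 scaled FPKM at CT22 in LKO and 344 and 359.6 in Flox, and its genotypes overlapped over the 3 time points. Rcan2, an inhibitor of calcineurin, and Dpy19l3, a C-mannosyltransferase, averaged 0.412 and 1.01 in LKO, against 1.93 and 3.44 in Flox (log2 -1.01 and -1.15). The remaining lower genes were Lect1, Adh6-ps1, Fbxo31, Slc35e3, Zbtb11os1, Dym, the gene model Gm826, Hist1h2bf and Rbbp5, with log2 differences from -0.88 to -0.47. Zbtb11os1 is antisense to Zbtb11, and the labels do not say whether strand was used in the quantification.

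Lists of hepatocyte metabolism held few called genes, and their medians lay on both sides of 0. In the list of urea cycle and amino acid breakdown 33 of 34 differences were below 0 (median -0.32). The corresponding counts were 26 of 31 for fatty acid oxidation and ketogenesis (median -0.35) and 16 of 18 for gluconeogenesis and glycogen (median -0.38), beside 5517 of 9426 for all tested genes (median -0.04). No gene of these 3 lists passed. In cholesterol synthesis 0 of 24 passed and 17 differences were above 0 (median 0.12), and in fatty acid and triglyceride synthesis Elovl3 was lower (median -0.22 over 29 genes). Of the 14 hepatocyte markers 0 passed and 11 were below 0 (median -0.24), and their part in these values was not tested. Ahcy, which hydrolyses adenosylhomocysteine, ran from 331 to 436 scaled FPKM in LKO (median 390.0) and from 523 to 614 in Flox (median 554), with no overlap and a log2 difference of -0.53 (adjusted p = 0.055). Argininosuccinate lyase, Asl, averaged 135 ± 17.98 in LKO and 180 ± 21.2 in Flox (adjusted p = 0.110). Fitm1, a lipid droplet protein, averaged 9.47 ± 3.25 in LKO and 53.5 ± 29.0 in Flox (log2 -2.17, adjusted p = 0.062). Its Flox libraries were spread from 9.31 to 94.1. The bile acid importer Slc10a1 averaged 120 ± 27.7 in LKO and 199 ± 49.1 in Flox (adjusted p = 0.110), and the master hepatocyte factor Hnf4a 90.1 ± 8.99 and 123 ± 25.2 (adjusted p = 0.156).

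None of the 24 tested genes of the ER chaperone and unfolded protein response list passed, and the median log2 difference was -0.14. Hspa5, which encodes the chaperone BiP, averaged 186 ± 77.6 scaled FPKM in LKO and 198 ± 36.7 in Flox (log2 -0.18, SE 0.26, adjusted p = 0.762). Its LKO libraries ran from 92.6 at CT20A to 311 at CT20B, a spread wider than the whole Flox range of 162 to 253. Xbp1, the transcription factor of this response, averaged 71.5 ± 11.2 in LKO and 91.3 ± 13.4 in Flox (log2 -0.35, adjusted p = 0.246). Herpud1, an ER-associated degradation factor, averaged 72.5 ± 31.7 and 130 ± 48.7 (log2 -0.86, adjusted p = 0.098). In the integrated stress response list 0 of 12 passed, with a log2 difference of 1.06 for the cytokine Gdf15 (adjusted p = 0.098).

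No core clock or clock output gene passed the genotype test either. Over 16 tested genes the median log2 difference was -0.10, and values ran from -0.35 to 0.10. The activator Arntl (BMAL1) averaged 3.90 ± 0.814 scaled FPKM in LKO and 3.85 ± 0.905 in Flox (log2 0.01, SE 0.11, adjusted p = 0.965). The repressors Per2 and Nr1d1 had log2 differences of -0.09 each (SE 0.18 and 0.13). Dbp, a target of CLOCK and BMAL1 that falls through the night, held 3.81 and 4.04 at CT18, 1.95 and 2.02 at CT20 and 0.84 and 1.31 at CT22 in LKO. In Flox it held 6.24 and 3.66, 1.64 and 1.501, and 0.741 and 0.586 at these times. It declined in both genotypes, and the change with time passed in Flox (limma F test, adjusted p = 0.049) and not in LKO (0.326), while the interaction of genotype and time did not pass (0.723). The count of genes changed with time in Flox, 2, was 0 or 1 when any single library was left out and 0 with no filter on low values.

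Within the 3 time points, 4 genes changed with time in LKO (0.0424%) and 2 in Flox (0.0212%), and 248 and 1510 did so at an unadjusted p under 0.05. Irf2bp2, a transcriptional corepressor, passed in both genotypes (adjusted p = 0.0035 in LKO and 0.039 in Flox). It held 16.4 and 19.3 scaled FPKM at CT18, 21.2 and 20.7 at CT20 and 6.66 and 5.73 at CT22 in LKO, against 7.57 and 7.38, 21.8 and 20.4, and 7.91 and 8.86 in Flox. The genotypes were close at CT20 and apart at CT18, but the interaction missed the threshold (adjusted p = 0.191). Ip6k2, an inositol hexakisphosphate kinase, passed in LKO (0.010) and missed in Flox (0.078), with an interaction at 0.701. Its LKO libraries held 9.74 and 9.65 at CT18, 13.3 and 13.01 at CT20 and 2.63 and 3.85 at CT22, against 6.63 and 4.87, 13.8 and 13.5, and 4.24 and 4.98 in Flox. The genotype difference itself varied among the times in 2 genes (0.0212%, 638 at an unadjusted p under 0.05). These were Mir703, listed at 79.7 and 85.3 scaled FPKM in the LKO libraries of CT20 and at 0 in the other 10, and Snora43, listed at 9.26 and 15.1 in LKO at CT22 and at 0 elsewhere. Both are small RNAs, for which a listed 0 may be a failed estimate.

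The genotype difference at CT18 to CT22 was set against that of CT0 to CT16 on the same day, in 48 libraries with none shared between the windows. Of the 60 higher genes 59 were also above 0 at CT0 to CT16, and of the 18 lower genes 17 were below 0, where 47.5% and 52.5% of all tested genes were above and below 0. Leaving out CT2 and CT4, where Rbbp5 went against the labels in some libraries, gave counts of 59 and 17 as well. LKO CT10B, with Rbbp5 at 3.67 against 3.60 and 3.22 in Flox at CT10, and LKO CT0A, at 3.48, stayed in both counts. The exceptions were Fam198a, at -0.14 over CT0 to CT16, and the gene model Gm826, at 0.17. Without CT2 and CT4, 57 of the 60 and 17 of the 18 passed at CT0 to CT16 in the same direction (limma, adjusted p under 0.05). Of all 9426 tested genes 2896 were higher and 3498 lower there, over 7 time points. The window of CT18 to CT22 holds 3, so the numbers of calls cannot be compared directly. The share of all tested genes with the same sign in both windows was not computed. Ccnd1 had log2 differences of 0.03, 1.35, 1.04 and 1.79 at CT0 to CT4, CT6 to CT10, CT12 to CT16 and CT18 to CT22, and Cyp2c37 of 0.30, -0.90, -1.45 and -1.58. The window of CT0 to CT4 holds the libraries of CT2 and CT4, and Rbbp5 itself stood at 0.12 there, against -0.38, -0.42 and -0.53 in the later ones.

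**Figure D4:**
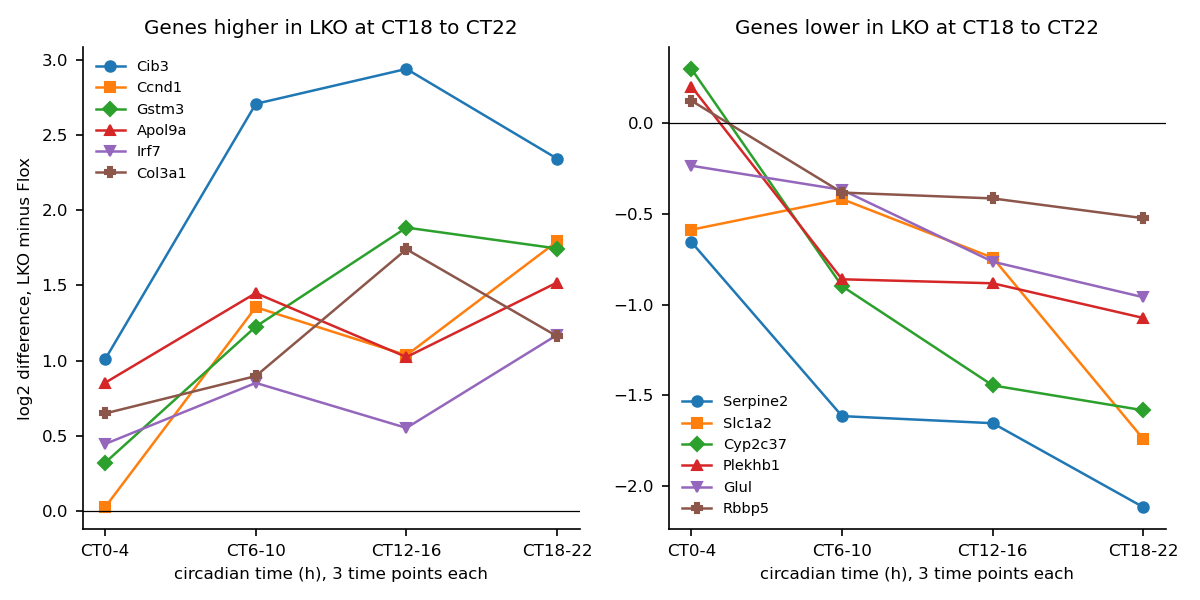
Log2 differences between LKO and Flox (vertical axes) of 6 higher genes (left) and 6 lower genes (right) in 4 windows of the first day (horizontal axis), each over 3 time points and 6 libraries per genotype; lines join the windows of 1 gene. The differences of Slc1a2 stood at -0.59, -0.42 and -0.74 before CT18 and at -1.74 at CT18 to CT22, and those at CT0 to CT4 include the libraries of CT2 and CT4, of which some went against their labels in Rbbp5.

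The contrast of the windows passed in 4 genes that were relatively higher (0.0424%) and 10 relatively lower (0.106%) at CT18 to CT22, while 1400 and 1627 passed an unadjusted p under 0.05. Slc1a2 differed by -1.16 (SE 0.22, adjusted p = 0.030), with log2 differences of -1.74 at CT18 to CT22 and -0.59 at CT0 to CT16. Of the 78 called genes Slc1a2 and the gene model Gm826 passed this contrast. Without CT2 and CT4 no gene passed it, and the contrast of Slc1a2 was -1.10 (adjusted p = 0.071). The RNA sensor Ifih1 had log2 differences of 0.42 at CT18 to CT22 and -0.28 at CT0 to CT16 (contrast 0.70, adjusted p = 0.030), and its contrast was 0.64 without CT2 and CT4 (adjusted p = 0.079). Scgb1c1, a secretoglobin, had the largest contrast, 2.66 (adjusted p = 0.021, and 0.071 without CT2 and CT4). It held 0.403 scaled FPKM at the lowest, 13.8 at the median and 19.7 at the highest in LKO, and was listed at 0 in 4 of 6 Flox libraries and at 0.297 and 0.280 in the other two. Its genotype difference at CT18 to CT22 did not pass by itself (adjusted p = 0.103). Without LKO CT20A the contrast passed in 700 higher and 979 lower genes, without LKO CT18B in 415 and 576, and without LKO CT18A, LKO CT20B, Flox CT18B, Flox CT18C, Flox CT20A or Flox CT22A in none. It passed in 1 higher gene without LKO CT22A, in 9 higher and 10 lower without LKO CT22B, in 3 and 3 without Flox CT20B and in 2 and 4 without Flox CT22B.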

How the data were processed

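Total RNA of 96 mouse livers was sequenced from stranded mRNA libraries, and 12 libraries (6 LKO, 6 Flox, grouped by their labels) were compared. The authors deposited FPKM per gene, and the unit was taken from its range and from Cufflinks being named. FastQC, Trimmomatic, HISAT2, Cufflinks and mm10 are named in the submitters' processing notes, without versions. The table held 13094 entries, 65 with a repeated symbol and 21 with a number for a symbol, and 0 columns without a sample. FPKM fix each library's total, so a change in abundant transcripts moves the others, and the read depth is unknown.

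Here values were divided by median-ratio size factors. Entries averaging 1 FPKM or more over the 12 libraries were tested on log2(scaled FPKM + 1), a scale that understates changes of low genes, with limma 3.58.1 in R 4.3.3 (trend, robust, time point as a factor, 8 residual degrees of freedom, two-sided, Benjamini-Hochberg over 9426 entries, threshold 0.05). The p-values measure the spread between these libraries. F tests gave the interaction and time effects, and a fit over 48 first-day libraries the contrast with CT0 to CT16. The tests were checked on simulated data. Named genes were the called genes of largest change with a mean of at least 5 scaled FPKM in 1 genotype and no overlap between genotypes (12 higher and 6 lower), up to 4 members per gene list, 6 genes for each further test, and genes named after their values were seen. Members and lists were chosen with earlier results of these data known. Positions are from GENCODE M21 and promoters from RefSeq (GRCm38.p6).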

Additional observations from a re-analysis of the deposited data

Results flagged for a closer look

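In 26 of 310 groups of 6 libraries, 1 library stood apart by a gap of more than 0.625 of the group's range. Chance gives about 1 in 20 for independent normal values. Values here are scaled FPKM, each group pools 3 time points, and all genes share the same libraries, so that rate is no measure for the 26.

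In LKO, 3 genes named above stood apart at CT18A. Serpine2 held 5.261 there, against 2.184 at most in the other LKO libraries, Dpy19l3 held 1.911 against 0.9804 at most, and Fstl1 held 0.9407 against 1.584 at least. LKO CT20A was low in Xbp1 (49.39, the others at least 73.75), Slc10a1 (68.38) and Gstt3 (7.056) and high in Tbc1d8 (3.181). LKO CT18B was low in Arntl (2.265, the others at least 4.025) and high in Lhpp (27.94). Hist1h2bf was high in LKO CT20B (3.944), Cyp2c55 in LKO CT22A (8.302) and Rn45s in LKO CT22B (26280).

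In Flox, Rbbp5 was lowest at CT22B (3.171, the others 3.558 to 3.724), where Tubb6 was high (5.322). Plekhb1 was low at CT20B (10.86, the others 18.30 to 21.05). CT18B was high in Ifi27l2b (9.978), Gpt (113.4) and Asl (220.7) and low in Tmx3 (1.43), and CT18C was high in Cd24a (1.288). CT22A was high in Cxcl14 (3.154), Meg3 (1.393), Hspa1b (19.18) and Ptgds (1.848). CT20A was high in Lpin1 (19.17) and Lgr5 (0.7002).

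The genotype difference was unequal between CT18 to CT22 and CT0 to CT16 in 14 genes by limma. Relatively higher at CT18 to CT22 were Scgb1c1 (contrast 2.66, log2 difference 2.90 against 0.24), Ifih1 (0.70), Parp9 (0.59, 0.07 against -0.52) and Bivm (0.41). Relatively lower were Slc1a2 (-1.16), E030018B13Rik (-1.46), Lhpp (-1.05), Zdhhc12 (-0.74), Tma16 (-0.74), Tbc1d8 (-0.71), Gm826 (-0.65), 2310061I04Rik (-0.62), Stk11 (-0.54) and Agap3 (-0.54). Adjusted p-values lay between 0.021 and 0.047, and none of the 14 passed without CT2 and CT4. The genotype difference varied among CT18, CT20 and CT22 in Mir703 (adjusted p = 1.1e-08) and Snora43 (0.00016), each listed at 0 in 10 of 12 libraries.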

How the results depend on the processing

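Against 60 higher and 18 lower genes, leaving out 1 library in turn gave 25 to 186 higher and 8 to 96 lower. The counts were 165 and 48 with no filter on low values, 137 and 64 with array weights, 73 and 30 with no time factor, 73 and 70 in one fit over all 96 libraries and 29 and 7 with log2 Rn45s as a covariate. They were 25 and 7 without CT18, 14 and 12 without CT20 and 7 and 1 without CT22, where fewer libraries were fitted. No rescaling, quantile normalization, a pseudocount of 0.1, a filter over 96 libraries and leaving out LKO CT20A and CT22B (chosen after seeing the data) stayed within 1.5 times. The replicate block gave 72 and 17, 40 and 12 of them shared with the counts above. Replicate letters name libraries only, with a correlation of A minus B differences between genotypes of 0.252 at CT20 and -0.0408 at CT22. Apart from these settings' own construction, the cause was not tested.

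The contrast with CT0 to CT16, 4 higher and 10 lower, gave 1 and 0 with no rescaling, 7 higher with quantile normalization, 0 and 0 against CT12 to CT16 and 0 and 0 without CT2 and CT4, the last chosen after seeing the data. It gave 537 and 807 without LKO CT20A and CT22B, and 0 to 700 and 0 to 979 when 1 library was left out. The interaction, 2 genes, gave 1 with a pseudocount of 0.1, 8 without LKO CT20A and CT22B and 2 to 8 without 1 library. Time in LKO, 4 genes, gave 11 without LKO CT20A and CT22B and 3 to 13 without 1 library. Time in Flox, 2 genes, gave 5 with no rescaling, 1 with quantile normalization, 0 with no filter, 1 with the filter over 96 libraries, 0 without LKO CT20A and CT22B and 0 to 1 without 1 library. None of the 78 called genes changed sign in its genotype difference at CT18 to CT22. The read depth is unknown, so low genes, where most calls lie, carry an error that cannot be stated.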
